A study of Mus musculus with 6 samples.

Results

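The microRNAs miR-10a and miR-10b were followed in bone marrow-derived macrophages with and without Dicer, the enzyme that processes microRNA precursor hairpins. Their assays were taken by name from a table of TaqMan RT-PCR threshold cycles: 3 of 596 miRNA assays, namely 1 for miR-10a and 1 for miR-10b in the first block of rows (335 miRNA assays) and a second miR-10b assay in the second block (261 miRNA assays). Marrow cells from femora of male mice aged 6 to 8 weeks were grown for 7 days in DMEM-F12 with FCS and L929-conditioned medium, a source of macrophage colony-stimulating factor. Knockout (KO) cultures came from LysM-Cre/Dicer flox/flox/Apoe-/- mice and wild-type (WT) cultures from LysM-Cre/Dicer wt/wt/Apoe-/- mice, with 3 biological replicates in each group. Both groups carry LysM-Cre, a recombinase driven in myeloid cells, and both lack Apoe, so that the groups differ in the labels by the floxed Dicer alleles alone. The panel has no assay of Dicer mRNA, and the extent of the deletion in these cultures was not measured in the files.

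miR-10a and miR-10b are paralogs that lie within Hox gene clusters and are produced from the 5′ arm of their hairpins. The miR-10 genes are expressed together with neighbouring Hox genes, and miR-10a is known to restrain inflammatory signalling in endothelial cells. A mature microRNA pairs with its targets mainly through the seed, bases 2 to 8, so paralogs with the same seed are predicted to share most targets. In the RefSeq annotation of mouse build GRCm38.p6, miR-10a lies at chr11:96317186-96317208 on the plus strand, between Hoxb5 and Hoxb4 and inside the annotated span of Hoxb3. miR-10b lies at chr2:74726074-74726096 on the plus strand, inside the annotated spans of Hoxd3 and Hoxd4.

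The mature sequences are shown because they define what separates the paralogs, with the seed in capitals.
miR-10a: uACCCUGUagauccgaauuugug
miR-10b: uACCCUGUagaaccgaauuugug
Both have 23 bases and the same seed, and they differ at 1 base, U12A, with the base of miR-10a first and positions counted from the 5′ end.

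The annotated hairpins are shown because they contain the part that Dicer cuts to remove the loop, with the mature 5′ arm in capitals.
Mir10a: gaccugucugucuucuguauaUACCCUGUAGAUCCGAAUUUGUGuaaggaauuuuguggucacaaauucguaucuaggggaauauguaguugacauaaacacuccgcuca
Mir10b: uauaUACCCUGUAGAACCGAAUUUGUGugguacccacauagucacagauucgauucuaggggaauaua
Between the annotated 5′ and 3′ arms lie 18 bases in Mir10a and 17 bases in Mir10b.

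A threshold cycle (Ct) falls by 1 for each doubling of template, and wells without amplification are listed at 40. Each block has 5 endogenous control assays of small RNAs that Dicer does not make (U6, U87, Y1, snoRNA135 and snoRNA202), and the log2 relative abundance used below is the mean Ct of these controls minus the Ct of the assay in the same sample. Ct values of 35 or more were set to 35 first, so that a value at this ceiling is an upper bound of the abundance. The mean Ct of the controls in the first block was 22.8, 20.3 and 19.3 in KO replicates 1, 2 and 3, and 21.1, 20.6 and 19.1 in the WT replicates. KO replicate 1 thus had the latest controls, and it also had the fewest miRNA assays under the ceiling, 219, against 277 and 290 in the other KO samples and 307 to 309 in WT samples. The number of samples limits the precision of every value. The marker list of haematopoietic cells and macrophages was present: all 6 of its assays, among them miR-223 and miR-142-3p, were under the ceiling in every sample.

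miR-10a was readily measured in every culture and was less abundant in every KO culture than in any WT culture. Its Ct was 29.0, 25.1 and 23.9 in KO replicates 1, 2 and 3, and 23.5, 23.6 and 22.3 in WT replicates 1, 2 and 3. Relative to the controls, these are log2 abundances of -6.13, -4.84 and -4.58 in KO, against -2.41, -3.04 and -3.22 in WT. The groups did not overlap, as in 169 of the 282 assays tested (59.9%), where every KO sample was below every WT sample, and KO replicate 1 was the lowest sample. An assay was tested if it was under the ceiling in each sample of KO, of WT or of both.

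Across the tested assays 105 (37.2%) were lower in KO at an adjusted p under 0.05 and 1 (0.355%) was higher. Of the 6 haematopoietic and macrophage markers 3 were among the lower ones, miR-21, miR-142-3p and miR-223, with a median difference of -1.92 over the 6. All 6 were under the ceiling in every sample, and 56.7% of the 201 such assays were called lower when fitted alone. Without KO replicate 1, 2 markers passed, beside 34.5% of all tested assays called lower. Without KO replicate 3, 4 passed, beside 39.3%. Without KO replicate 2 or any WT replicate 0 passed, where at most 1.06% of all tested assays were called lower. miR-10a fell 4.89-fold, with a mean of -5.18 ± 0.83 in KO and -2.89 ± 0.43 in WT on the log2 scale (SD, n = 3 each). The difference was -2.29 ± 0.61 (SE; 95% interval from -3.74 to -0.84; limma, two-sided, adjusted p = 0.034; adjusted p = 0.0511 with the replicate number as a block). Set against the WT mean, KO replicates 1, 2 and 3 were 9.43-fold, 3.85-fold and 3.22-fold lower. Without KO replicate 1 the difference was -1.82 (adjusted p = 0.0364). The call was lost without KO replicate 2 (adjusted p = 0.0605) and without WT replicate 1, 2 or 3 (0.113, 0.109 and 0.0751), and the difference kept its sign in each of these fits.

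miR-10b in the first block was a later assay, and it was clearly measured in all WT cultures and near or past the detection limit in KO cultures. Its Ct was 40 (no amplification), 34.6 and 33.4 in KO replicates 1, 2 and 3, and 29.9, 30.6 and 29.0 in WT replicates 1, 2 and 3. The log2 relative abundance was at most -12.2 in KO replicate 1, -14.3 in KO replicate 2 and -14.0 in KO replicate 3, against -8.80, -10.1 and -9.90 in the WT replicates. Every KO sample was below every WT sample, as in 169 of the 282 assays tested (59.9%). The value of KO replicate 1 is a bound, and it is the highest of the KO bounds and values since that sample had the latest controls.

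miR-10b in the first block fell at least 14.99-fold (log2 difference -3.91 ± 0.75, SE, n = 3 each; 95% interval from -5.69 to -2.12; limma, adjusted p = 0.0311). The bound holds if the well of KO replicate 1 is taken as an absence, and it was at least 5.92-fold when the floor was set after scaling to the controls. Without that sample, both remaining KO values were measured, and the fall was 23.8-fold (log2 -4.58, adjusted p = 0.0142). The measured KO replicates 2 and 3 were 26.4-fold and 21.6-fold below the WT mean. The call was lost without KO replicate 2 (adjusted p = 0.056) and without WT replicate 1, 2 or 3 (0.111, 0.109 and 0.0733). The assay passed the filter only through WT, the group where it is high. Its SE, interval and p in the fit of all samples take the bound of KO replicate 1 as a measured value. Without a filter the call was also lost (limma, adjusted p = 0.0566).

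**Figure D1:**
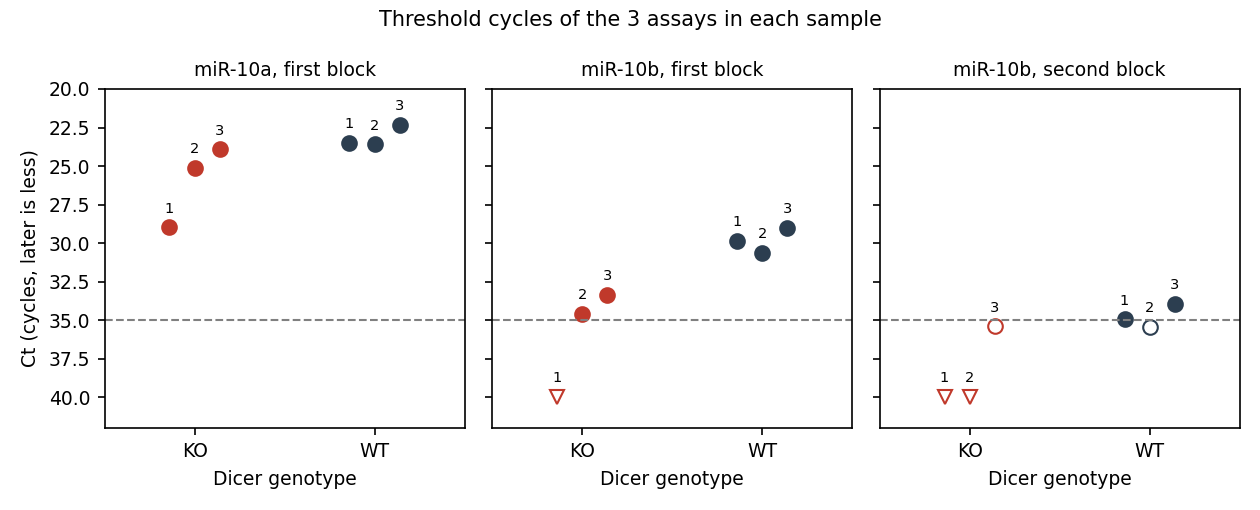
Ct in cycles (vertical axis, reversed so that more template is higher) of the 3 assays in KO and WT samples, with replicate numbers beside the points. The dashed line is the ceiling of 35, open circles are values measured past it and triangles are wells without amplification at 40. The KO values of miR-10a span 23.9 to 29.0, against 22.3 to 23.6 in WT, and only WT samples reach a Ct under 35 in the second miR-10b assay.

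Both falls stand against a broad decrease of microRNAs in KO. The median difference over the 282 tested assays was -1.91, and 247 of the differences were negative. Of these assays, 86 had a lower difference than miR-10a and 16 had a lower one than the first miR-10b assay. With the mean of the miRNA assays measured in all 6 samples as the reference in place of the controls, which removes a common change, the difference of miR-10a was -0.40 (95% interval from -1.34 to 0.53; adjusted p = 0.619). On the same scale that of miR-10b was -2.02 (95% interval from -4.28 to 0.24; adjusted p = 0.332). With that reference, neither interval excluded 0.

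The distance between the paralogs can be compared within each sample without any control assay, since both were read in the first block. miR-10b came 9.48 and 9.45 cycles after miR-10a in KO replicates 2 and 3, and at least 6.03 cycles after it in KO replicate 1, where miR-10b did not amplify. In WT replicates 1, 2 and 3 the distance was 6.39, 7.04 and 6.68 cycles. Both measured KO values lay above all WT values, and the bound of KO replicate 1 does not place that sample above or below WT. These distances also hold the efficiencies of both assays, so they are compared between samples and not read as a ratio of molecules.

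The mean distance was 9.46 cycles in KO replicates 2 and 3 and 6.70 ± 0.32 cycles in WT (SD, n = 3), which is a further decrease of miR-10b against miR-10a of -2.76 on the log2 scale (exact permutation p = 0.2, two-sided, the smallest possible with 2 against 3 samples). With KO replicate 1 at its bound the difference was -1.62 (exact permutation p = 0.4), and with its well at 40 it was -3.28 (exact permutation p = 0.1, the smallest possible with 3 against 3). With the floor set after scaling, where all KO values of miR-10b are at the floor, it was -0.28 (exact permutation p = 0.7). With these numbers of samples the test cannot pass a threshold of 0.05.

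**Figure D2:**
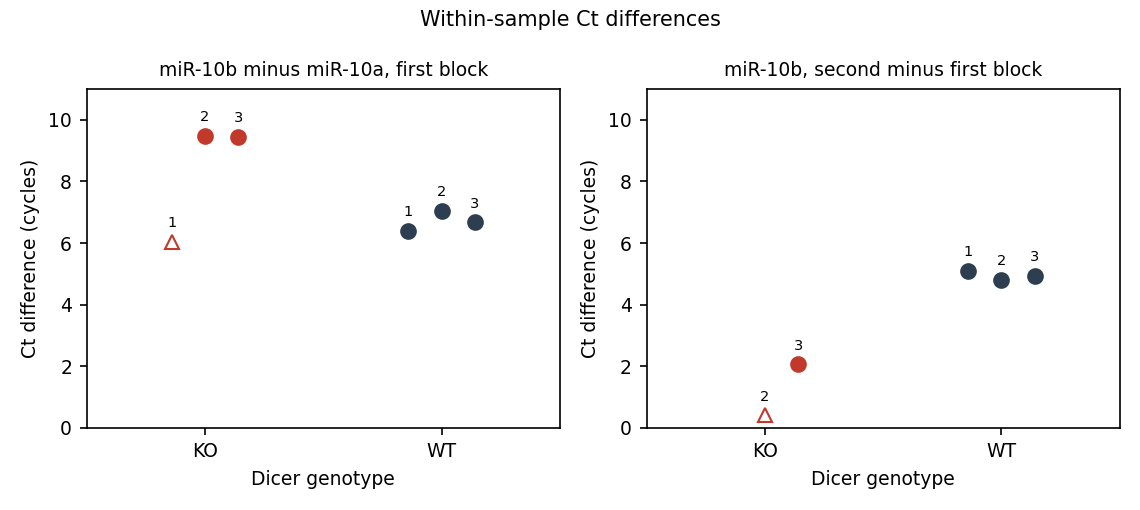
Within-sample differences of Ct in cycles in KO and WT samples, of miR-10b over miR-10a in the first block (left) and of the second over the first miR-10b assay (right), with replicate numbers beside the points. Circles are samples in which both assays amplified and open triangles are lower bounds at the ceiling; KO replicate 1 is left out at the right since neither assay amplified. Left, KO replicates 2 and 3 lie at 9.48 and 9.45 cycles, against 6.39 to 7.04 in WT. Right, KO replicate 3 lies at 2.06 cycles, against 4.80 to 5.09 in WT. The second assay was past the ceiling in KO replicate 3 and in WT replicate 2.

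The second miR-10b assay, read with the controls of the second block, lay at the detection limit in all samples. Its Ct was 40, 40 and 35.4 in KO replicates 1, 2 and 3, and 34.96, 35.4 and 33.9 in WT replicates 1, 2 and 3. It was under the ceiling in 0 KO samples and in 2 WT samples, so it was not tested. All WT samples and 1 KO sample gave some amplification, and 2 KO wells gave none. As listed, KO replicate 3 was at a log2 relative abundance of -16.1, against -13.9, -16.1 and -14.9 in the WT replicates, so the only KO sample that amplified was level with the lowest WT sample. With Ct values of 35 or more at the ceiling, the difference of the group means was 0.07, a value set by the ceiling in all KO samples that gives no direction.

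Between the blocks the same name gave very different Ct values, and these distances also hold the efficiencies of the 2 assays. The second assay came 5.09, 4.80 and 4.94 cycles after the first in WT replicates 1, 2 and 3, a mean of 4.94 ± 0.15 (SD, n = 3). In KO it came 2.06 cycles later in replicate 3 and at least 0.41 cycles later in replicate 2, while neither assay amplified in replicate 1. The WT samples thus lay close together, and the only KO sample with both values lay below them. Its second-block Ct of 35.4 was past the ceiling, as was that of WT replicate 2. Relative to the controls of each block, the second assay was 5.06 lower on the log2 scale over the 2 samples with both assays under the ceiling, WT replicates 1 and 3 (exact sign-change p = 0.5, the smallest possible with 2 samples).

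The difference between KO and WT was 3.97 higher on the log2 scale in the second assay than in the first, with values past the ceiling set to it (exact permutation p = 0.1, the smallest possible). All KO values of the second assay were at the ceiling, so this number is set by that bound and gives no test of a difference in response. With wells left at 40 it was 2.31 (exact permutation p = 0.4). Whether both assays were designed for the same mature sequence is not given in the sources used here.

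Of 13 names that occur in both blocks, 3 were tested in both: miR-322, miR-467a and miR-467b. Between the second and first assay of a name, the log2 relative abundance differed by -0.31 for miR-322, 6.39 for miR-467a and -3.00 for miR-467b over the samples with both under the ceiling, beside -5.06 for miR-10b. KO minus WT was -3.55 in the second and -1.91 in the first block for miR-322 (adjusted p = 0.144 and 0.0524), 0.19 and -2.44 for miR-467a (0.844 and 0.034), and -0.56 and -1.38 for miR-467b (0.779 and 0.166). For miR-322 the second-block well of KO replicate 1 did not amplify, while the first block read a Ct of 30.3 there. Without that sample its difference was -1.31 in the second and -1.36 in the first block. Without KO replicate 3 the second-block difference of miR-467a turned to -0.14, and the first-block call of miR-467a held without KO replicate 1 and in no other fit with a sample left out. For 3 of the 4 names that could be compared, the mean levels of the 2 assays lay over 1 apart on the log2 scale. These 3 were miR-10b, miR-467a and miR-467b. The authors' deposited ratios, described below, hold the second-block values of these 3 under other names, and those of miR-322 under its own. Whether the 2 rows of each of these 3 names read the same microRNA cannot be settled here.

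The authors' deposited table of relative quantities, which are ratios to the WT samples, holds miR-10a at 0.118, 0.271 and 0.310 in KO and 1.45, 0.876 and 0.789 in WT, and their deposited fold of KO over WT is 0.225. For miR-10b of the first block the authors' deposited table gives 0.00588, 0.0396 and 0.0461 in KO and 1.79, 0.694 and 0.803 in WT, with a fold of 0.0278. The first of these KO values was computed from the well at 40, so it stands for no measured amount. For the second assay the authors' deposited table does not match its own Ct row: the row named miR-10b has ratios of 12.3, 0.0105 and 0.00938 in KO and 8.23, 15.3 and 0.00793 in WT (deposited fold 0.522), and these are the values that follow from the Ct row named miR-1186. The values that follow from the Ct row of the second miR-10b assay stand in the authors' deposited table under miR-10b#, its passenger strand, with a fold of 0.165. In all, 33 of the 596 ratio rows (5.54%) differ from their own Ct row by over 0.05 on the log2 scale, 6 in the first block and 27 in the second, where runs of neighbouring names are displaced. In the first block this concerns miR-1, miR-100, miR-21, miR-210, miR-32 and miR-320 and neither miR-10 assay. By the Ct table miR-1, a microRNA of muscle, was at 40 in all 6 samples, whereas the ratio table carries under its name the values of the Ct row of miR-100. Which table carries the right names cannot be settled from these files, and the values above and below follow the names of the Ct table. Under the names of the ratio table the second miR-10b assay would hold the values listed for miR-1186 in the Ct table, and miR-100 those of a row at 40 in all 6 samples. Likewise miR-10b# would hold the values given here for the second miR-10b assay, and the marker miR-21 those listed for miR-210.

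By the names of the Ct table, the passenger strand of the miR-10b hairpin, miR-10b#, was also at the detection limit. The ratio table carries the values of this row under miR-101b. Its Ct was 40, 40 and 36.0 in KO replicates 1, 2 and 3, and 34.3, 40 and 33.3 in WT replicates 1, 2 and 3. It was under the ceiling in 0 KO and 2 WT samples and was not tested. In both this assay and the second miR-10b assay, KO replicate 3 was the only KO sample that amplified. No passenger strand assay of miR-10a was among the rows analysed here.

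The wider miR-10 family consists of miR-99a, miR-99b and miR-100, which share a seed of their own, and of miR-125a-5p and miR-125b-5p. Their sequences are shown beside those of miR-10a and miR-10b above because the seeds, in capitals, divide the family into separate target classes.
miR-99a: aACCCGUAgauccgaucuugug
miR-99b: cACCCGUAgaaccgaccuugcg
miR-100: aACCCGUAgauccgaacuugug
miR-125a-5p: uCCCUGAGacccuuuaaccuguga
miR-125b-5p: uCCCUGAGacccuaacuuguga
All 5 were measured in every sample, and 3 of the 5 fell (limma, adjusted p under 0.05), beside 37.2% of all tested assays, with a median difference of -2.04 beside -1.91. In a fit of only the 201 assays under the ceiling in all 6 samples, 3 of the 5 also passed, beside 56.7% of the 201 called lower. The medians there were -2.04 and -1.82. With the global mean as the reference 0 of the 5 passed and the median was -0.15, beside -0.20 over all tested assays. The 3 were miR-100 (4.11-fold; adjusted p = 0.0312), miR-99a (3.65-fold; adjusted p = 0.034) and miR-99b (9.13-fold; adjusted p = 0.0487), all with the second seed. The Ct of miR-99b was 30.6, 24.5 and 25.01 in KO, against 24.4, 22.0 and 22.5 in WT, so KO replicate 1 stood far from the others. Without that sample miR-99b was 4.75-fold lower and no longer passed (adjusted p = 0.0977).

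The assays of the third seed did not pass, and no test compared the seeds with each other. miR-125b-5p, which is expressed from loci beside those of miR-99a and miR-100, had a difference of -1.22 ± 0.59 (SE; adjusted p = 0.128). miR-125a-5p, encoded beside miR-99b, had a difference of -2.92 ± 1.48 (SE, limma, adjusted p = 0.143). Those that passed were -2.04 for miR-100, -1.87 for miR-99a and -3.19 for miR-99b. The Ct of miR-125a-5p was 32.1, 24.5 and 23.3 in KO and 25.2, 22.2 and 22.0 in WT, and without KO replicate 1 its difference was -1.22. Of this family 2 passed without KO replicate 1, beside 34.5% of all tested assays called lower, and 1 without KO replicate 3, beside 39.3%. Without KO replicate 2 or any WT replicate 0 passed, where at most 1.06% of all tested assays were called lower. The count was also 0 without a reference (0.709% of all tested assays) and without a filter (0.568%). It was 2 without a ceiling (30.9%) or with the floor set after scaling (40.1%). With the authors' deposited ratios (28%) it was 1, miR-99a, and there the row named miR-100 holds other values.

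**Figure D3:**
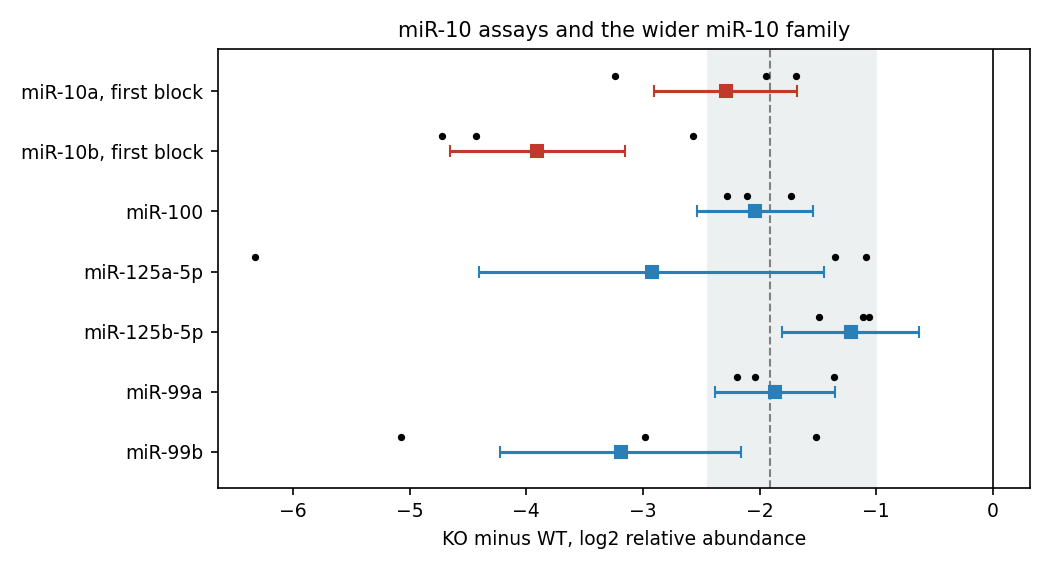
KO minus WT in log2 relative abundance (horizontal axis) of the tested miR-10 assays (red) and the wider family (blue), as the mean with its SE from limma (n = 3 per group); black points are the KO samples minus the WT mean. The dashed line is the median of 282 tested assays, -1.91, and the grey band spans the lower to the upper quartile of their differences. miR-10b lies left of the band at -3.91, an upper bound, and miR-10a inside it at -2.29.

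The other microRNAs of Hox clusters were scarce. miR-196b, which lies in the Hoxa cluster, had Ct values of 40, 34.96 and 30.8 in KO and 31.9, 29.8 and 40 in WT, so that each group held 1 sample without amplification, and it was not tested. miR-615-3p and miR-615-5p, from the Hoxc cluster, were at 40 in all 6 samples. Of the Hox cluster microRNAs named here, miR-10a was the only one measured in every culture.

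The pattern of miR-10a over the 6 samples was shared by many assays. Among 139 other assays of the first block under the ceiling in all samples, the median Pearson correlation with miR-10a was 0.90, and all share the same 6 samples, controls and amounts of RNA. The highest were miR-339-5p (r = 0.99), miR-532-5p (0.99), miR-500 (0.99), miR-139-5p (0.99) and miR-532-3p (0.99), over 6 samples each. Their differences between KO and WT were -2.42, -1.65, -1.84, -3.17 and -2.03, beside -2.29 for miR-10a. The correlations include the difference between the groups and are given as a description.

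Markers of other cell types were measured because miR-10 paralogs are known from stromal and endothelial cells, which a marrow culture could hold. The counts of markers that passed stand beside 37.2% of all tested assays called lower in KO. The mesenchymal or stromal markers miR-143, miR-145, miR-199a-3p, miR-199a-5p, miR-199b and miR-214 were all on the panel, 5 were tested and 0 passed (limma, adjusted p from 0.475 to 0.804). Their summed log2 relative abundance ranged from -4.35 to -3.34 in KO and from -7.61 to -0.70 in WT, and the range in WT enclosed that in KO. WT replicate 3 was the low one: miR-145 had a Ct of 28.0, 25.4 and 23.6 in KO and 22.6, 22.8 and 27.9 in WT. The log2 relative abundance of miR-10a was -2.41, -3.04 and -3.22 in WT replicates 1, 2 and 3. Without WT replicate 1 or 2 the difference of miR-145 turned to 0.69 and 0.33. Without WT replicate 3 it was -2.94 in place of -0.64, and those of miR-143, miR-199a-3p and miR-214 were -2.83, -2.86 and -3.44 (adjusted p = 0.0733 for each of these 4). The endothelial markers miR-126-3p and miR-126-5p were both tested, and their differences of -2.24 and -1.15 did not pass (adjusted p = 0.16 and 0.166). That of miR-126-3p is an upper bound, since KO replicate 1 was past the ceiling, and it was -0.84 without that sample. Their summed level ranged from -10.6 to -7.24 in KO and from -7.06 to -6.23 in WT. Of the epithelial markers miR-141, miR-200a, miR-200b, miR-200c and miR-429, all 5 were tested, with a median difference of -1.55 over the 5. Of these 1, miR-429, was called lower in KO, beside 37.2% of all tested assays. It fell at least 54.2-fold (limma, adjusted p = 0.0333), with 1 KO sample under the ceiling. The bound of miR-429 was 19.4-fold without KO replicate 2 and 174-fold without KO replicate 3, and it passed in no fit with a sample left out other than the one without KO replicate 3 (adjusted p from 0.0581 to 0.111 in the others). In the fit of all samples miR-429 passed the filter only through WT. The summed log2 level of the epithelial list ranged from -5.50 to -4.24 in KO and from -3.13 to -2.95 in WT. The groups were apart on this sum, as on those of the endothelial, neural and haematopoietic lists. The last ranged from 2.99 to 3.85 in KO and from 4.82 to 5.72 in WT. The stromal and lymphoid sums overlapped between the groups. Of all tested assays taken singly, 59.9% had every KO sample below every WT sample. The lymphoid and the neural list had 1 tested assay each and 0 that passed, and the erythroid, muscle and liver lists had 0 tested. The part of other cells in the miR-10 values was not tested, and fewer cells that express a microRNA cannot be told apart from less of it per cell.

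**Figure D4:**
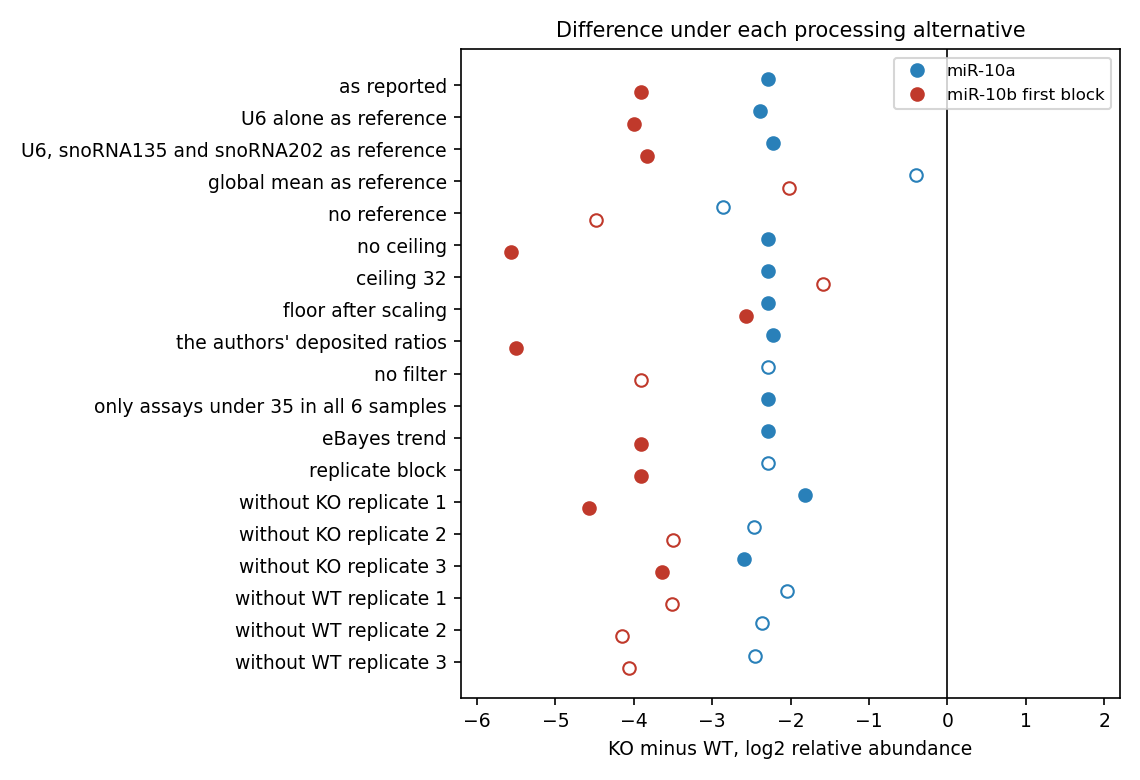
KO minus WT in log2 relative abundance (horizontal axis) of miR-10a (blue) and the first miR-10b assay (red) under each processing alternative (vertical axis). Filled points have an adjusted p under 0.05 (limma) and open points do not. All values are negative, from -2.86 to -0.40 for miR-10a and from -5.57 to -1.59 for miR-10b.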

How the data were processed

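Per the labels, RNA prepared with a mirVana kit was converted to cDNA with TaqMan reagents and preamplified; no instrument, software or threshold is named there. The deposited table holds Ct scores for 608 assays. The authors also deposited ratios to the WT samples and a fold of KO over WT. From their values, each ratio is a delta-Ct quantity against U6, snoRNA135 and snoRNA202 scaled to the geometric mean of WT, with wells at 40 entered as numbers.

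Ct values were limited to 35, set against the 5 controls of their block and compared by limma 3.58.1 in R 4.3.3 over 282 assays, with Benjamini-Hochberg adjustment and a threshold of 0.05. The procedure was tested on simulated data with independent normal noise and a minority of assays changed. Those data held no ceiling, no shift shared by the assays of a sample and no broad decrease. Single differences used exact permutation tests (Python 3.11.15, scipy 1.17.1). Named beside the members were the controls, lists of relatives and markers, names tested in both blocks and the 5 assays most like miR-10a. The members and lists were chosen with earlier results of these data known. Same-numbered samples deviated together from their group means (correlations 0.23, 0.28 and 0.27, beside -0.28 to 0.01 for unlike numbers), while the labels state no shared batch. The reported fits and permutation tests did not pair the samples. The replicate number entered as a block only where this is stated, as an alternative. Alternatives changed the controls, ceiling, filter, spread estimate, block and samples.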

Additional observations from a re-analysis of the deposited data

How the results depend on the processing

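The sign of the difference of miR-10a and of the first miR-10b assay was negative under every alternative run, while the call was less firm. The adjusted p of miR-10a was above 0.05 with the global mean (-0.40), without a reference (-2.86), without a filter and with the replicate block (-2.29 each), and over left-out samples the difference ranged from -2.59 to -1.82. That of miR-10b was above 0.05 with the global mean (-2.02), without a reference (-4.48), with a ceiling of 32 (-1.59) and without a filter (-3.91), and ranged from -4.58 to -3.50 over left-out samples. The number of assays past the threshold was 106 of 282 tested as reported, 3 with the global mean, 2 without a reference, 3 of 352 without a filter and 3 to 115 over left-out samples: 102 without KO replicate 1, 4 without KO replicate 2, 115 without KO replicate 3 and 3, 4 and 3 without WT replicates 1, 2 and 3. The second miR-10b assay moved to -3.26 without a ceiling, and to -3.28 with the authors' deposited ratios that match its Ct values, an alternative chosen after seeing the data. The deposited row of its own name gave -3.23, but holds the values of the Ct row miR-1186. Over left-out samples it ranged from -0.89 to 0.55, and it could be tested only without a filter (adjusted p = 0.968) and without WT replicate 2 (-0.36, adjusted p = 0.856). The decrease of miR-10b beyond miR-10a turned to 0.70 with a ceiling of 32, under which all 3 KO values of miR-10b are bounds, and ranged from -2.76 to -1.04 over left-out samples. The replicate block changed the call of miR-10a and of no other miR-10 result; for the paralog difference the exact sign-change p over 3 pairs was 0.5. The level difference between blocks could not be had with a ceiling of 32. Depth enters here as distance from the ceiling: miR-10a lay at least 6.03 cycles before it, and miR-10b reached it in KO.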
